A study of Mus musculus with 6 samples.

Results

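The Py2T line kept on 40 µM H2O2 (C40) was compared with Py2T cells given PBS, in 4 of the 6 libraries of the series. Py2T cells are epithelial and were derived from a tumour of the mouse mammary gland. Per the labels, the C40 cells received 40 µM H2O2 every day for 4 months, the PBS cells carried 0 µM over the same time, and the remaining line, I60, received 60 µM. The treatment protocol calls the PBS cells untreated. Each group had 2 libraries of total RNA. The series calls these biological duplicates, but whether they were treated apart is not known here, so the p-values measure the spread between these libraries. There was 1 line per concentration, and a difference that arose in a line without H2O2 cannot be told apart from one that came with it. All genes with at least 1 CPM (reads of a gene as a share of its library, on a fixed scale) in at least 2 of the 6 libraries were taken, 11524 of the 24454 rows of the table.

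H2O2 is a reactive oxygen species that cells make in their own metabolism and remove with catalase, peroxiredoxins and glutathione peroxidases, and NRF2 is a transcription factor that turns on many protective genes when thiols are oxidised. Epithelial cells can lose their junctions and take on a mesenchymal state, in which they make vimentin, N-cadherin and fibrillar collagens. The integrated stress response is a separate programme, in which phosphorylated eIF2 favours translation of ATF4, a factor that induces amino acid synthesis, transport and the pro-death factor CHOP.

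The PBS libraries held 57141146 and 60260520 reads and the C40 libraries 48113692 and 54356128. The keratin genes Krt8 and Krt18, markers of simple epithelium, were abundant in every library, with Krt8 at 1264 and 1164 CPM in PBS and 1534 and 1059 CPM in C40. Most markers of other cell types lay below the filter. Of 12 fibroblast markers 5 were tested, and all 5 were called higher in C40 (median log2 fold change 3.45), against 11.2% of all genes tested. Genes near 0 in PBS pass the filter through the groups where they are on, so this is no support for a change of all 12. The other 7 lay below the filter, with Lum, Fap, Thy1 and Dpt at 0 reads in all 4 libraries. The summed level of the 12 fibroblast markers was 7.68 and 6.42 CPM in PBS and 731 and 188 CPM in C40, most of it Col3a1 in C40. The part of such cells in the collagen results was not tested. Of 14 immune markers 4 were tested, with 1 called higher and 1 lower, and Adgre1, Cd3e, Cd3g and Tyrobp had 0 reads. Of 12 endothelial markers 1 was tested, and it was called higher at a log2 fold change of 0.87. The immune and endothelial calls did not hold with each library left out in turn. Of 10 muscle and myoepithelial markers 1 was tested, and of 8 adipocyte markers 0. The muscle and myoepithelial marker tested was Krt14, a keratin of basal and myoepithelial cells, which was abundant and fell from 1426 and 692 to 276 and 93.3 CPM (6.18-fold, limma adjusted p = 0.0184). It was not called when PBS replicate 1 was left out. The part of such cells in the falls of epithelial genes was not tested. In bulk RNA, fewer cells of a kind and less RNA per cell cannot be told apart.

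C40 differed from PBS in 2333 of the 11524 genes tested, 20.2%, by limma at an adjusted p below 0.05. Of these 1293 (11.2%) rose and 1040 (9.02%) fell. The median log2 fold change over all genes tested was -0.02. Among the calls the median absolute log2 fold change was 1.44 for rises and 1.43 for falls, and 43 rises and 10 falls were of 5 or more on that scale. The called genes were on 1 side of both PBS libraries in both C40 libraries, as were 62.7% of all genes tested (30.9% above and 31.8% below). The counts depended on single libraries. Leaving out PBS replicate 1 gave 549 higher and 425 lower calls, leaving out PBS replicate 2 gave 607 and 545, and leaving out C40 replicate 1 gave 1717 and 1750. With each of the 6 libraries left out in turn, 488 of the rises and 383 of the falls kept their call.

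**Figure D1:**
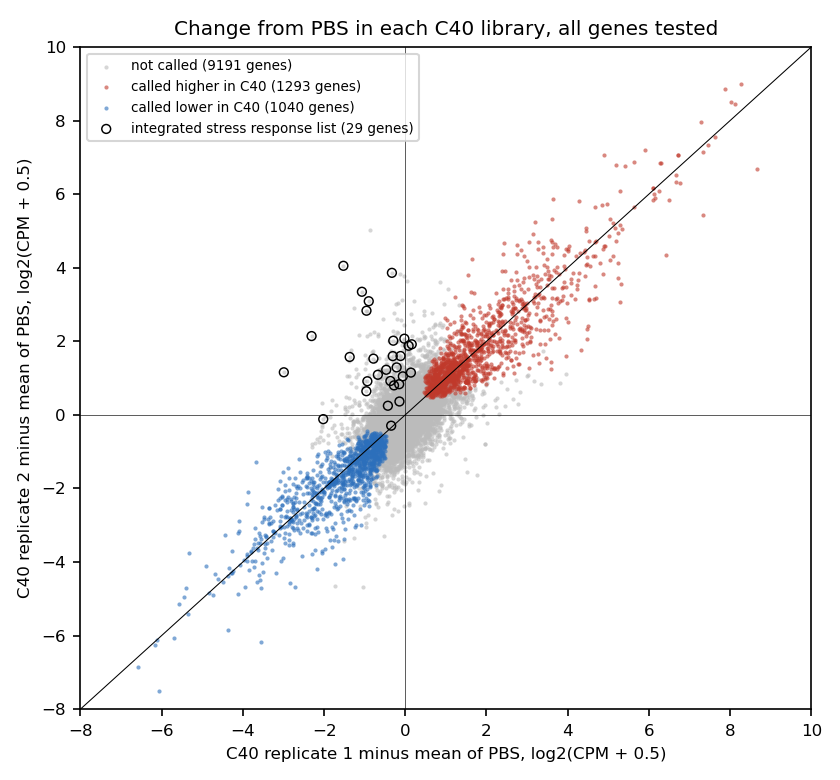
Change from the PBS mean in C40 replicate 1 (x axis) and replicate 2 (y axis), on the log2(CPM + 0.5) scale, with 1 point per gene for 11524 genes. Red points are the 1293 genes called higher in C40 and blue points the 1040 called lower, which lie along the line of equal change, while the 29 circled genes of the integrated stress response list lie above that line.

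Outside the epithelial and mesenchymal lists, the collagens and predicted genes, the 12 largest rises among genes of at least 5 CPM were in genes that PBS cells barely made. Ccnd2 (cyclin D2, a partner of CDK4 and CDK6; Entrez gene 12444; mm10 chr6:127125162-127152188) stood at 0.0875 and 0.0996 CPM in the PBS libraries and 182 and 304 CPM in the C40 libraries, 397-fold higher (limma adjusted p = 2.27e-05). Serpinh1 (a chaperone of procollagen; Entrez gene 12406; chr7:99345375-99353239) went from 1.12 and 1.59 to 435 and 854 CPM. Both genes were high in both C40 libraries, which lay less than 2-fold apart, with no overlap with PBS. Cd34, a sialomucin of progenitor and endothelial cells, went from 0.158 and 0.0498 to 167 and 211 CPM, and Dpysl3, a cytoskeletal protein of growth cones, from 0.123 and 0.0498 to 151 and 213 CPM. Adgra2 (GPR124), an adhesion receptor known as a co-receptor for Wnt7 ligands, went from 1.86 and 1.76 to 358 and 574 CPM. These were rises of 313-fold, 307-fold and 197-fold.

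Other rises of this size were in Zcchc24 (194-fold), the membrane protein gene Tmem176b (168-fold), the semaphorin receptor gene Plxna4 (119-fold), Soga1 (97.0-fold) and Ptprn, a protein of secretory granules (95.4-fold). Zcchc24 and Soga1 were nearly equal in the C40 libraries, at 162 and 154 CPM and 166 and 149.6 CPM. Adamts14, which trims the amino end of procollagen, had 0 reads in PBS and 29.6 and 73.5 CPM in C40, at least 2069-fold higher against a floor of 3 reads over the PBS libraries. Ppic, a cyclophilin, had 3 reads over PBS and 40.0 and 60.2 CPM in C40, a ratio of pooled reads of 1986 (95% interval 679 to 9633, counting error only). Each of these 12 rises kept its call with any 1 library left out.

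The 12 largest falls were taken in the same way. Cd24a, a mucin-like surface glycoprotein (chr10:43579169-43584265), went from 221 and 182 CPM in PBS to 2.49 and 0.607 CPM in C40, 110.3-fold lower (limma adjusted p = 0.00017). Ripk3, the kinase that drives necroptosis (chr14:55784995-55788857), went from 50.2 and 37.1 to 0.104 and 0.0736 CPM, 74.2-fold lower, and Rassf4, of the Ras association domain family, from 51.1 and 73.3 to 0.145 and 0.0368 CPM. For these genes both C40 libraries lay far under the lower PBS library. Tlr3, a receptor for double-stranded RNA, went from 58.6 and 55.5 to 2.27 and 0.497 CPM. Tgm1, the transglutaminase that crosslinks the cornified envelope, went from 71.8 and 69.1 to 0.873 and 0.552 CPM, and Klk6, a secreted serine protease, from 783 and 522 to 23.7 and 21.1 CPM.

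Sfrp1, a secreted Wnt antagonist, had 0 reads in both C40 libraries against 35.1 and 33.0 CPM in PBS, at least 1162-fold lower against the same floor. Sorbs2, an adaptor of actin and adhesion sites, also had 0 reads in C40 against 12.4 and 15.3 CPM, at least 475-fold lower. Artn (artemin, a ligand of the GDNF family) fell 37.0-fold, Cwh43 (lipid remodelling of GPI anchors) 41.7-fold, Cpm (carboxypeptidase M) 33.4-fold and Chdh (choline dehydrogenase) 29.3-fold. Chdh was the least even of these, at 5.28 and 0.442 CPM in the C40 libraries against 67.2 and 68.5 CPM in PBS. Each of the 12 falls kept its call with any 1 library left out.

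**Figure D2:**
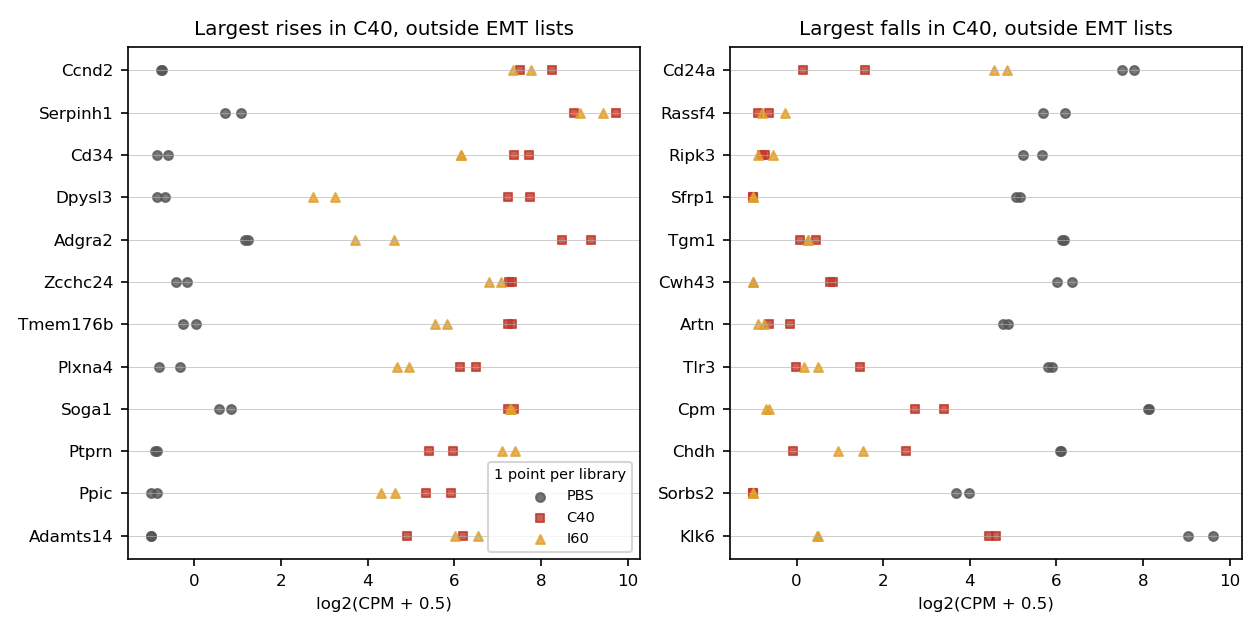
Level of the 12 largest rises (left) and 12 largest falls (right) of C40 against PBS outside the epithelial and mesenchymal lists, collagens and predicted genes, in log2(CPM + 0.5), with 1 point per library, PBS as grey circles, C40 as red squares and I60 as yellow triangles. The C40 squares and PBS circles do not overlap for any of the 24 genes, and the I60 triangles lie with C40 for some genes (Soga1, Rassf4) and far from it for others (Dpysl3, Adgra2, Klk6).

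The epithelial and mesenchymal lists moved in opposite directions. Of 29 tested epithelial junction and identity genes 22 fell and 0 rose (median log2 fold change -2.34), and of 21 tested mesenchymal and matrix genes 16 rose and 0 fell (median 3.39), with 1 fall without C40 replicate 1. Those lists were called in 75.9% and 76.2% of their tested members, against 20.2% of all genes tested. They were written with earlier results of these data known, and 5 of 26 mesenchymal members lay below the filter. A gene near 0 in PBS passes the filter through the groups where it is on, so the shares are not support for a change of the whole lists. Residual epithelial RNA remained in C40, with Cdh1 (E-cadherin) at 59.7 and 87.8 CPM against 529 and 537 CPM in PBS, and Krt8 and Krt18 did not pass the test (limma adjusted p = 0.842 and 0.527).

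Genes of the epidermal type of barrier fell in the same way. Of 24 tested members of a list of cornified envelope genes, stratified keratins, kallikreins and membrane-bound serine proteases with their inhibitors, 19 fell and 0 rose, with a median of -2.66 and 1 rise without C40 replicate 2. The calls were 79.2% of the tested members, against 20.2% of all genes tested. With the replicate number as a block 1 rose, Slpi. The kallikreins are secreted proteases that cut junctions between shedding skin cells, and Klk6, Klk7, Klk8 and Klk10 all fell. Klk7 went from 431 and 266 to 21.5 and 12.7 CPM and Klk8 from 426 and 318 to 42.5 and 37.7 CPM, both without overlap. The matriptase gene St14 went from 278 and 375 to 37.5 and 43.4 CPM, its target protease gene Prss8 fell 4.56-fold and the gene of their inhibitor, Spint1, went from 62.1 and 96.9 to 5.40 and 6.29 CPM. Serpinb5 (maspin) fell 6.67-fold and the plakin Evpl 13.1-fold. The 5 members that were not called included Slpi, a secreted protease inhibitor, at 59.7 and 35.9 CPM in PBS and 133 and 65.6 CPM in C40 (limma adjusted p = 0.100, and 0.043 with the block), and Cdsn (corneodesmosin), at 9.50 and 84.6 CPM in the C40 libraries.

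Several enzymes that fold and crosslink collagen rose with the collagens. Of a list of them, 47.8% of tested members were called, against 20.2% of all genes tested. With 5 of 28 listed below the filter, which genes near 0 in PBS pass through other groups, the share is not support for a change of the list. Of 23 tested members of that list 10 rose and 1 fell (median 0.57), with 2 falls without C40 replicate 1. Besides Serpinh1, the prolyl 3-hydroxylase genes P3h1 and P3h3 rose, P3h1 from 1.51 and 1.97 to 32.6 and 24.3 CPM and P3h3 from 0.0350 and 0.0332 to 15.7 and 12.5 CPM. Pcolce, which enhances cleavage of the carboxyl propeptide, rose from 24.0 and 17.7 to 535 and 237 CPM. The lysyl oxidase family split, with Loxl3 rising 11.2-fold and Loxl1 3.61-fold, while Loxl4 fell from 511 and 425 to 182 and 185 CPM. Among 24 tested metalloproteases and inhibitors 7 rose and 1 fell, 33.3% in all (median 0.03, and 0.18 and 0.40 in the C40 libraries taken singly). The collagenase gene Mmp13 rose from 4.94 and 1.61 to 42.0 and 78.8 CPM and the gelatinase gene Mmp9 from 2.03 and 0.697 to 9.87 and 9.53 CPM. The fall, in Mmp24, lost its call without C40 replicate 1, PBS replicate 1 or either I60 library, and the falls of the list numbered 2 without C40 replicate 1 and 3 without C40 replicate 2 or with the replicate block.

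Genes of integrins and laminins moved in both directions. Of 21 tested members 6 rose and 7 fell, 61.9% against 20.2% of all genes tested. The median was -0.46 (-0.32 and -0.16 in the C40 libraries taken singly). The hemidesmosome integrin gene Itgb4 fell from 471 and 508 to 196 and 191 CPM. Itgb6, of the epithelial integrin that activates TGF-beta, fell 18.8-fold to 0.312 and 0.313 CPM. The fibronectin receptor subunit Itga5 rose from 70.3 and 88.5 to 289 and 360.0 CPM and Itga7, a laminin receptor of muscle, from 6.74 and 7.22 to 26.7 and 34.8 CPM. Leaving out PBS replicate 1 gave 2 rises, and leaving out PBS replicate 2 gave 3 rises and 3 falls.

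Genes of growth factors and their receptors rose in part and fell in part, and most were not called. Of 28 tested receptors 9 rose and 3 fell, 42.9% against 20.2% of all genes tested (median 0.29). Another 13 of 41 listed lay below the filter. Genes near 0 in PBS pass it through other groups, so the share is not support for a change of the list. Pdgfrb, the PDGF receptor of mesenchymal cells, went from 0.210 and 0.0830 to 104 and 27.1 CPM, and the collagen receptor Ddr2 from 0.385 and 0.531 to 34.6 and 106 CPM. Both were far above PBS in both C40 libraries, but the libraries differed from each other, with Pdgfrb higher in replicate 1 and Ddr2 higher in replicate 2. Fgfr1 rose from 18.8 and 29.0 to 99.6 and 133 CPM and Ephb2 from 10.4 and 13.3 to 89.8 and 104 CPM. Erbb3, a partner of ERBB2, fell from 69.3 and 114 to 12.8 and 9.73 CPM, Epha1 fell 6.11-fold and Epha4 13.3-fold. The falls numbered 6 without C40 replicate 1 and 5 without C40 replicate 2.

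Of 34 tested growth factors and other secreted ligands 10 rose and 6 fell, and 5 rose without PBS replicate 1 or replicate 2. The calls with all libraries were 47.1% of the tested list, against 20.2% of all genes tested. Another 18 of 52 listed lay below the filter. As genes near 0 in PBS pass it through other groups, the share is not support for a change of the whole list. The median of 0.31 was made of unlike libraries, with -0.15 in C40 replicate 1 and 0.99 in replicate 2. Of the 34 genes 22 were higher in C40 replicate 2. In I60 replicate 2 was the higher library in 25 of the 34 (median 0.20), and in PBS in 13 (median -0.14). Gdnf, a ligand that signals through the kinase Ret, rose from 1.49 and 1.39 to 17.3 and 73.4 CPM, and Ret itself from 0.0350 and 0.0332 to 4.63 and 13.3 CPM, while the related ligand Artn fell. Vegfc, the lymphatic growth factor, rose from 0.123 and 0.0498 to 14.4 and 28.7 CPM, and Tgfb1, an inducer of the mesenchymal state, from 7.89 and 8.41 to 77.8 and 70.3 CPM. Tgfb1 was even between the C40 libraries, whereas Gdnf was over 4-fold higher in replicate 2. The EGF receptor ligand Tgfa fell from 90.9 and 93.6 to 27.7 and 27.0 CPM, Btc (betacellulin) from 11.5 and 3.83 to 0.935 and 0.938 CPM and Fgf5 from 14.3 and 11.9 to 1.14 and 1.97 CPM.

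Wnt and Notch genes moved in both directions. In the Wnt list 48% of tested members were called, against 20.2% of all genes tested. A further 18 of its 43 members lay below the filter. Genes near 0 in PBS pass it through the groups where they are on, so the share is not support for a change of the pathway. Of 25 tested Wnt pathway genes 6 rose and 6 fell (median 0.06), with 3 and 2 when PBS replicate 1 was left out and 2 each when PBS replicate 2 was. Wnt5a, a ligand of the non-canonical branch, had 0 reads in PBS and 18.4 and 8.32 CPM in C40, at least 511-fold higher. Lef1, a transcription factor of the pathway, rose from 0.175 and 0.631 to 24.7 and 44.8 CPM, and the ligand gene Wnt4 fell from 13.5 and 4.65 to 0.229 and 0.0184 CPM. Of 18 tested Notch genes 4 rose and 1 fell, 27.8% against 20.2% of all genes, with a median of -0.09 that was 0.17 in C40 replicate 1 and -0.23 in replicate 2. The ligand Jag2 went from 2.91 and 2.29 to 153 and 153 CPM (49.9-fold, limma adjusted p = 2.27e-05) and the ligand Dll4 from 0.875 and 0.647 to 8.33 and 5.76 CPM. The other Notch calls, in Hey1, Rbpj and Notch3, were lost without 2 or more of the libraries taken singly, and the rises numbered 2 without any single PBS or I60 library. The falls numbered 3 without C40 replicate 1, 2 with the replicate block and 0 without either PBS library.

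Hox genes, which encode positional identity, rose at low levels. Of 36 listed Hox genes 14 were tested and 22 lay below the filter. Of the 14, 11 rose and 0 fell, 78.6% against 20.2% of all genes tested, with a median of 1.94. A gene at 0 in PBS passes the filter through the groups where it is on, so the share is not support for a change of the whole family. Hoxb8 had 0 reads in PBS and 6.78 and 4.99 CPM in C40 (at least 228-fold), Hoxb6 0 reads and 5.03 and 2.74 CPM (at least 149-fold), and Hoxa10 0 reads and 2.62 and 2.34 CPM (at least 96.6-fold). Hoxa5 went from 0.263 and 0.398 to 3.85 and 2.72 CPM and Hoxb3 from 3.10 and 2.85 to 8.06 and 8.19 CPM, the latter a call lost without PBS replicate 1 or 2. The C40 libraries lay less than 1 apart on the log2(CPM + 0.5) scale for all 14 tested genes.

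Genes best known from neurons were among the strongest rises. Of 32 tested genes of axon guidance and neural type 12 rose and 4 fell, 50% against 20.2% of all genes tested (median 0.43). Another 15 of 47 listed lay below the filter. Because genes near 0 in PBS pass it through other groups, the share is not support for a change of the list. Ncam1, a neural cell adhesion molecule, went from 1.30 and 1.24 to 68.9 and 120.1 CPM. The plexin Plxnd1 rose from 1.59 and 1.74 to 49.3 and 56.4 CPM, and the guidance ligands Sema5a, Sema3b and Sema3a rose 22.4-fold, 9.56-fold and 8.72-fold. Nes (nestin, an intermediate filament of neural progenitors) went the other way, from 413 and 386 to 17.4 and 16.7 CPM, as did the plexin Plxnb1, from 117 and 139.6 to 21.5 and 19.5 CPM. The falls numbered 2 without C40 replicate 2, PBS replicate 1 or either I60 library.

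Genes of cell death and innate immunity changed one by one. Of 21 tested genes of death receptors, necroptosis and pyroptosis 3 rose and 5 fell, 38.1% against 20.2% of all genes tested. The median was -0.17 (-0.23 and -0.08 in the C40 libraries taken singly). Ripk3 fell, but Mlkl, the effector it phosphorylates, stood at 59.2 and 64.1 CPM in PBS and 68.9 and 71.4 CPM in C40, and Ripk1 at 72.1 and 67.9 and 88.8 and 66.1 CPM, neither called (limma adjusted p = 0.438 and 0.667). Gsdmd (gasdermin D, the pore of pyroptosis) rose from 1.63 and 0.631 to 10.9 and 7.32 CPM, and the decoy receptor Tnfrsf23 fell from 171 and 183 to 73.3 and 77.1 CPM. Leaving out PBS replicate 1 gave 3 falls, and leaving out PBS replicate 2 gave 2 falls and 1 rise.

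Of 25 tested chemokines, cytokines and receptors 6 rose and 3 fell, 36% against 20.2% of all genes tested (median 0.56). Another 15 of 40 listed lay below the filter, which genes near 0 in PBS pass through other groups. The share is therefore not support for a change of the list. The receptor for interleukin 33, Il1rl1 (ST2), went from 3.10 and 0.830 to 154 and 129 CPM, and the interleukin 1 receptor Il1r1 from 2.22 and 1.05 to 56.1 and 35.1 CPM. The monocyte attractant Ccl2 went from 0.0875 and 0 to 20.9 and 5.89 CPM, over 3-fold higher in C40 replicate 1 than in replicate 2. Il1rl1 stood at 1.57 and 1.84 CPM in the I60 libraries, a log2 difference of -6.00 for I60 minus C40, a contrast that called 9.23% of all genes tested (limma adjusted p = 0.000421), while Il1r1 stood at 40.4 and 52.0 CPM there. Rises numbered 3 without either I60 or either PBS library, and falls 5 without C40 replicate 1 or with the replicate block and 0 without PBS replicate 1.

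The D cyclins moved in opposite directions. Ccnd1 (cyclin D1) fell from 1811 and 2009 to 828 and 501 CPM as Ccnd2 rose, a fall of 2.96-fold whose call was lost without PBS replicate 1 or 2. Cdkn2a, which encodes p16 and ARF, fell from 111 and 165 to 17.1 and 14.2 CPM. Of 22 tested D cyclins, CDKs and CDK inhibitors 1 rose and 4 fell, 22.7% against 20.2% of all genes. The median of -0.41 was -0.23 in C40 replicate 1 and -0.90 in replicate 2, and 17 of the 22 were lower in replicate 2. The falls numbered 11 without C40 replicate 1, 8 with the replicate block, 2 with PBS replicate 1 left out and 1 with PBS replicate 2 left out, and the rises 2 without C40 replicate 1. Of 27 p53 targets 2 rose and 5 fell, 25.9% against the same 20.2%, with a median of -0.17 that was -0.50 in C40 replicate 1 and 0.01 in replicate 2. The rises numbered 8 without C40 replicate 1, 4 with the replicate block and 1 without either PBS library, with 3 and 2 falls without PBS replicate 1 and 2. Mdm2, the ubiquitin ligase of p53, fell from 3500.3 and 2598 to 202 and 220.3 CPM, while Cdkn1a (p21) stood at 129 and 137 CPM in PBS and 116 and 203 CPM in C40 and was not called.

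Genes that remove peroxide differed between the C40 libraries. Of 25 tested genes 3 rose and 1 fell, 16.0% against 20.2% of all genes. The median of 0.09 was 0.37 in C40 replicate 1 and -0.15 in replicate 2. Of the 25 genes 21 were lower in replicate 2, and for 8 replicate 1 lay above and replicate 2 below both PBS libraries. The latter held for 893 of all 11524 genes tested. The rises numbered 5 without C40 replicate 2, and the falls 4 without C40 replicate 1 and 0 without any other single library. Prdx5, a mitochondrial and peroxisomal peroxiredoxin, rose from 74.6 and 61.9 to 172 and 233 CPM, and Msra, which repairs oxidised methionine, from 2.08 and 2.31 to 9.31 and 8.96 CPM. Of 28 tested NRF2 targets 7 rose and 1 fell (28.6%; median 0.10, and 0.32 and -0.08 in the C40 libraries taken singly), with 11 rises without C40 replicate 2, 3 without either I60 library and 2 without either PBS library. The falls numbered 9 without C40 replicate 1, 3 with the replicate block and 0 without any single PBS or I60 library. Gstp1 was the NRF2 target that rose and kept its call with each library left out, from 42.8 and 44.4 to 109 and 98.1 CPM, although reads of its near copy Gstp2 may be shared with it.

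Fatty acid genes rose and fell, and lysosomal genes were called at a share near that of all genes. Of 30 tested genes of fatty acid synthesis and handling 4 rose and 7 fell, 36.7% against 20.2% of all genes tested. The median was -0.44 (-0.29 and -0.59 in the C40 libraries taken singly). The falls numbered 13 without C40 replicate 1, 4 without C40 replicate 2 and 1 without either PBS library, and the rises 2 without either PBS library. Pparg, the fat cell regulator, fell from 9.70 and 7.52 to 0.104 and 0.0736 CPM, and the desaturase Fads1 rose from 11.1 and 27.7 to 87.9 and 97.5 CPM. Acadvl, of mitochondrial fatty acid oxidation, rose from 62.3 and 61.4 to 159 and 138 CPM. Of 29 tested lysosomal genes 6 rose and 2 fell, 27.6% against 20.2% of all genes (median 0.20). There were 10 rises with the replicate block, 1 rise without PBS replicate 1, 2 without PBS replicate 2, and 1 fall without either. Npc2, a carrier of cholesterol out of lysosomes, stood at 103 and 124 CPM in PBS and 390.0 and 375 CPM in C40, 3.38-fold higher (limma adjusted p = 0.000914).

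**Figure D3:**
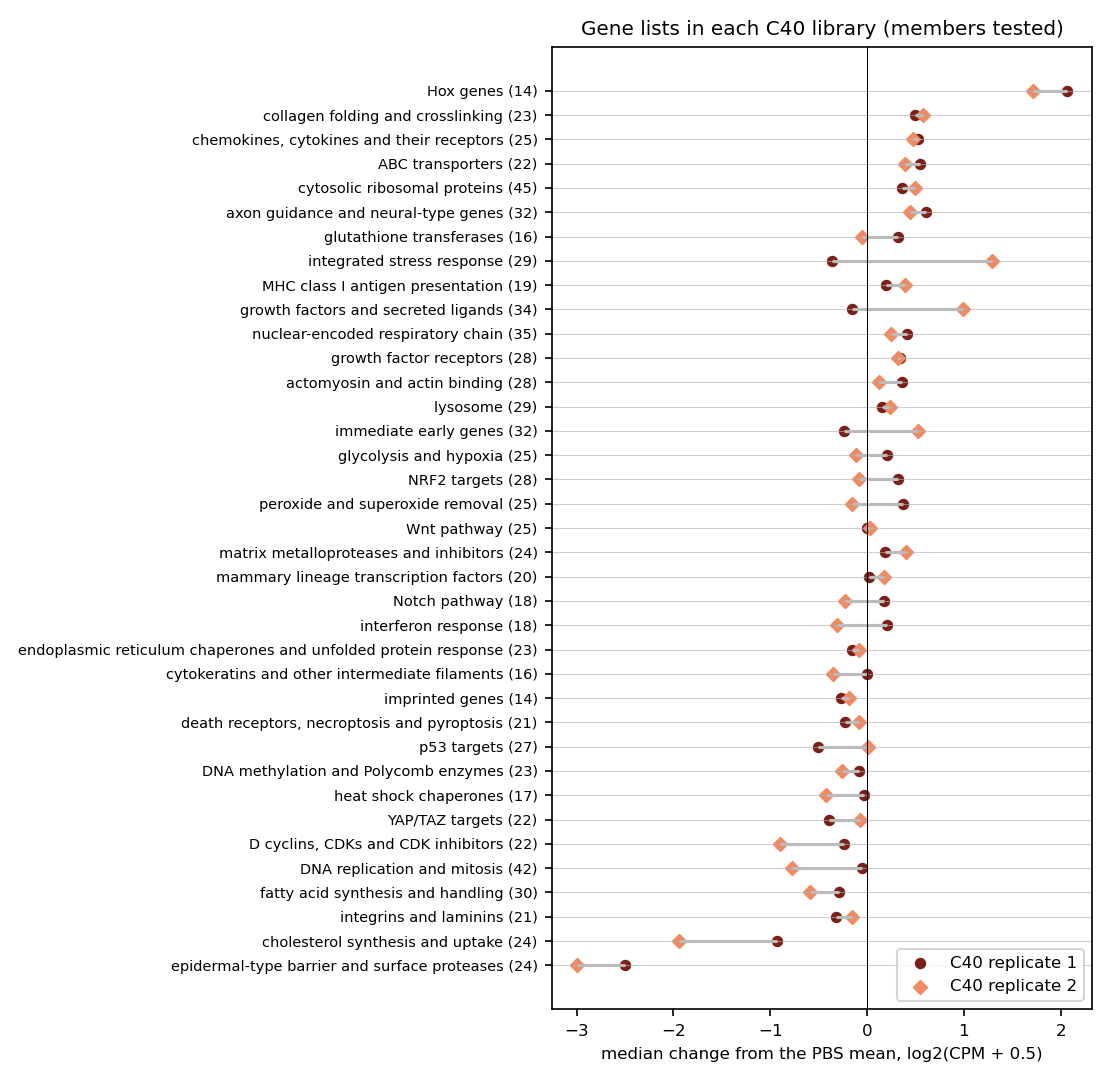
Median change from the PBS mean over the tested members of each of 37 process lists, in log2(CPM + 0.5), for C40 replicate 1 (dark circles) and replicate 2 (light diamonds), with the number of members tested in brackets. The circles and diamonds lie farthest apart, in this order, for the integrated stress response (-0.37 and 1.29), growth factors and secreted ligands (-0.15 and 0.99), cholesterol synthesis and uptake (-0.93 and -1.94), immediate early genes (-0.24 and 0.52), DNA replication and mitosis (-0.06 and -0.78) and D cyclins, CDKs and CDK inhibitors (-0.23 and -0.90).

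The C40 libraries agreed on the large changes and differed on several programmes. Of the genes over 2-fold from the PBS mean, 2029 in replicate 1 and 2635 in replicate 2, 1533 were shared in the same direction, which is 75.6% of the former and 58.2% of the latter, and 18 were over 2-fold in opposite directions. The libraries were over 2-fold apart for 1022 genes (8.87%), against 223 for the PBS libraries and 217 for the I60 libraries. The SD of the difference between replicates over genes on the log2 scale was 0.62 for C40, while PBS had 0.36 and I60 0.38. The wider spread held at every level of expression: among 2506 genes of 100 or more CPM, 7.50% were over 2-fold apart in C40 and 0.718% in PBS. For 1666 genes 1 C40 library lay above and the other below both PBS libraries. Of the 1022 genes 195 were called, 19.1%.

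Of the 37 process lists, the integrated stress response had the largest median difference between the C40 libraries. All 29 tested genes of the list were higher in replicate 2 than in replicate 1, 25 of them over 2-fold, with a median difference of 1.80 on the log2 scale, against -0.04 over all genes tested. Over all genes 53.6% were lower in replicate 2, and 773 of 11524 were below both PBS libraries in C40 replicate 1 and above both in replicate 2. Relative to PBS, 18 of the 29 were below both PBS libraries in C40 replicate 1 and above both in replicate 2, and 0 were called in the comparison with PBS by limma, with 0 at an unadjusted p under 0.05, 0 by DESeq2 and 1, a fall, by edgeR. With the replicate number as a block Atf5 and Asns were called higher and Nupr1 lower. Without C40 replicate 1, with the lone library assumed to vary like the other groups, 13 were called higher, and without C40 replicate 2, 1 was called lower. Replicate 2 was also the higher library in 28 of the 29 in PBS (median 0.53) and in 29 of 29 in I60 (median 1.07). Cbs rested on 0 reads and 1 read in C40.

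Atf3, a stress-induced transcription factor, stood at 13.0 and 22.3 CPM in PBS, 5.59 and 290.1 CPM in C40 and 5.04 and 34.6 CPM in I60. Ddit3 (CHOP) stood at 8.59 and 21.0 CPM in PBS and 6.17 and 142 CPM in C40, and Trib3, a pseudokinase induced by CHOP and ATF4, at 69.6 and 259 and 26.7 and 595 CPM. In each of these C40 replicate 1 was the lowest and replicate 2 the highest of the 4 libraries. Ppp1r15a (GADD34), which restores translation by directing dephosphorylation of eIF2, stood at 22.6 and 40.4 CPM in PBS and 23.9 and 446 CPM in C40. Chac1, which degrades glutathione, stood at 26.9 and 83.3 and 24.2 and 340.5 CPM, and Slc7a11, the cystine importer, at 11.2 and 19.4 and 5.40 and 44.9 CPM. Asns (asparagine synthetase) stood at 269.5 and 389 CPM in PBS and 342 and 1191 CPM in C40, and Atf4 itself at 438 and 788 and 368 and 1251 CPM. The cytokine gene Csf2 had the largest difference of all genes between the C40 libraries, at 0.312 and 47.1 CPM, against 1.26 and 0.730 CPM in PBS.

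The promoters of several of these genes hold the letters TGATGNAA on one or the other strand, the form of the composite element that ATF4 binds with C/EBP proteins. In the RefSeq promoter table of GRCm38.p6, from 250 bases before the start of a gene up to its start, the element was found in 7 of the 24 list members with a promoter (29.2%) and in 2.30% of the 9215 tested genes with one. Stretches around the match are shown for Atf3, Chac1, Slc7a11 and Asns, with the matched letters in capitals. Trib3 and Ddit3, which lay further apart between the C40 libraries than Chac1, Slc7a11 or Asns, were not among the 7 members with a match. The stretches lie at chr1:191183391-191183488 (minus strand), chr2:119351004-119351101 (plus strand), chr3:50443614-50443724 (minus strand) and chr6:7693210-7693277 (minus strand), and each is written 5′ to 3′ on the gene's strand. A match is a description of these letters and shows no binding.
Atf3: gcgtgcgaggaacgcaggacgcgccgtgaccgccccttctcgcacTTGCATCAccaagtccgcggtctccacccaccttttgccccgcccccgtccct
Chac1: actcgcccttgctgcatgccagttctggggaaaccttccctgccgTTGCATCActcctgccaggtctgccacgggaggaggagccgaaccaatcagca
Slc7a11: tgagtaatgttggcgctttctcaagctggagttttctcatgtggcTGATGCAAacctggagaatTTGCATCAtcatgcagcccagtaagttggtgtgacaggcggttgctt
Asns: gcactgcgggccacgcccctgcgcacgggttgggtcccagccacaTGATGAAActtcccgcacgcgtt

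Cholesterol genes were lower in both C40 libraries, and further from PBS in replicate 2. All 24 tested genes of synthesis and uptake were lower in C40 replicate 2 than in replicate 1 (median difference -1.11). In both C40 libraries 22 of them lay below both PBS libraries, as did 31.8% of all genes tested. In the PBS pair replicate 2 was the higher library in 19 of the 24, and in the I60 pair it was the lower library in 19 (median -0.20). The share of the list called against PBS was 75%, against 20.2% of all genes tested. By limma 17 fell and 1 rose, but the falls numbered 7 without either I60 library, 5 with PBS replicate 1 left out and 3 with PBS replicate 2 left out, and the rises 0 without either PBS library. Msmo1, a sterol demethylase, was even in the C40 libraries, at 115 and 100.5 CPM against 258 and 307 CPM in PBS, and kept its call with each library left out. Hmgcs1 (HMG-CoA synthase) stood at 334 and 293 CPM in PBS and 147 and 38.9 CPM in C40, a call lost without any single PBS or I60 library. Hmgcs1 was the member with the letters TCACNCCAC, a form of the sterol element bound by SREBP, in 1 of 16 promoters on file (1.24% of tested genes). The letters CCAAT, the box bound by NF-Y, were in 16 of 16 of these promoters and in 41.1% of those of tested genes. They were also in 28 of 33 promoters of the DNA replication and mitosis list (84.85%) and in 13 of 24 of the integrated stress response list (54.17%). Neither motif contains the other. The Hmgcs1 stretch, at chr13:119690169-119690267 (plus strand), is shown with the sterol element in capitals.
Hmgcs1: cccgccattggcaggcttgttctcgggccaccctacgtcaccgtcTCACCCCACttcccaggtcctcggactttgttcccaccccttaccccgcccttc

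Genes of DNA replication and mitosis lay on both sides of PBS in C40 replicate 1 and were lower in replicate 2. In replicate 1, 17 of 42 tested genes were above both PBS libraries, 19 below both and 6 within their range. Over all 11524 genes tested the split was alike, with 4889 above, 4974 below and 1661 within. Of the 42, 41 were lower in replicate 2 than in replicate 1 (median difference -0.75). Replicate 2 was also the lower library in 32 of the 42 in PBS (median -0.11) and in 33 of the 42 in I60 (median -0.32). For 15 of the 42 genes C40 replicate 1 lay above and replicate 2 below both PBS libraries, as for 893 of all 11524 genes tested. The share of the list called against PBS was 4.76%, below the 20.2% of all genes tested. By limma Cdt1 rose and Top2a, the mitotic topoisomerase, fell (from 858 and 603 to 425 and 288 CPM), and with the replicate number as a block 2 rose and 9 fell. Falls numbered 22 without C40 replicate 1, 2 without PBS replicate 2 and 0 without C40 replicate 2, PBS replicate 1 or either I60 library. The helicase subunit Mcm5 stood at 401 and 366 CPM in PBS and 526 and 223 CPM in C40, and the ribonucleotide reductase subunit Rrm2 at 277 and 213 and 262 and 99.9 CPM. Mki67, the proliferation marker, stood at 815 and 439 CPM in PBS and 365 and 164 CPM in C40, under both PBS libraries in both and not called (limma adjusted p = 0.0719, and 0.0251 with the block). Cdt1, which licenses origins, stood at 156 and 231 CPM in C40 against 101 and 120.0 CPM in PBS, higher in replicate 2 against the direction of the list, and the call held only when no library or C40 replicate 1 was left out.

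**Figure D4:**
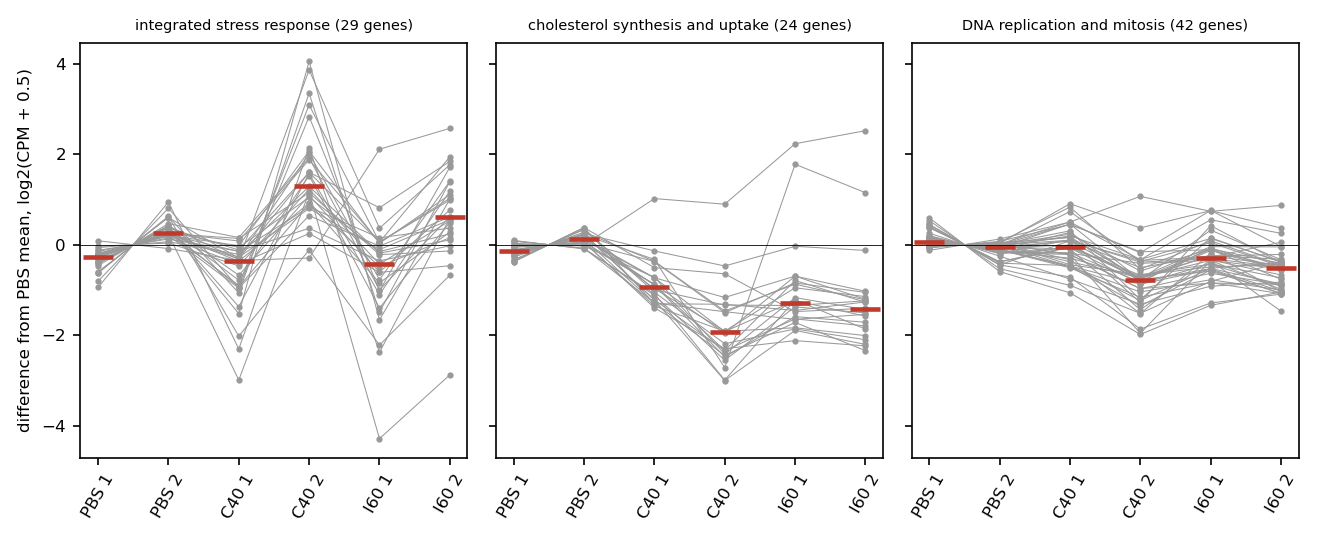
Difference of each gene from its PBS mean in log2(CPM + 0.5) for the 6 libraries, with 1 grey line per gene and the median as a red bar, for the integrated stress response (29 genes), cholesterol synthesis and uptake (24 genes) and DNA replication and mitosis (42 genes). The stress genes are highest in C40 replicate 2, where the cholesterol and replication genes are lowest.

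Further lists differed between the C40 libraries. In the immediate early list 6.25% of tested members were called against PBS, below the 20.2% of all genes tested. Of 32 tested immediate early genes 27 were higher in replicate 2 (median difference 0.98), and 2 rose against PBS, which became 13 without C40 replicate 1 and 1 without any single PBS or I60 library. Falls numbered 0, and 3 without C40 replicate 2. In I60 replicate 2 was also the higher library in 26 of the 32 (median 0.28), and in PBS it was the lower in 22 (median -0.11). Jun, a subunit of AP-1, stood at 42.8 and 22.6 CPM in PBS and 85.4 and 237 CPM in C40. Fosl1, another subunit, stood at 159 and 128 CPM in PBS and 129.5 and 426 CPM in C40. Jun was called higher, but not without any single PBS or I60 library. Of 18 tested interferon response genes 16 were lower in replicate 2 (median difference -0.72). The guanylate-binding protein gene Gbp2, for one, stood at 20.1 and 8.55 CPM in C40 against 2.43 and 2.09 CPM in PBS. In I60 replicate 2 was the higher library in 14 of the 18 (median 0.25), and in PBS in 9 (median 0.003). The inducible heat shock gene Hspa1a, whose reads may be shared with its near copy Hspa1b, stood at 18.2 and 16.0 CPM in PBS and 30.8 and 3.72 CPM in C40, so replicate 1 lay above and replicate 2 below PBS. Of 15 genes that host small nucleolar RNAs, chosen after their values were seen, 11 were higher in replicate 2 (median difference 1.16). Replicate 2 was also the higher library in 13 of the 15 in I60 (median 0.48), and the lower in 12 in PBS (median -0.20). Snhg12 stood at 31.2 and 230.5 CPM and Zfas1 at 66.9 and 398 CPM in the C40 libraries. In PBS they stood at 24.9 and 28.8 CPM and at 72.3 and 93.2 CPM.

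Calls were unevenly spread over the chromosomes, a pattern chosen after the values were seen and given as a description. On chromosome 19, 21.96% of 419 tested genes were called higher and 4.30% lower, with a median log2 fold change of 0.34. On chromosome 3, 6.91% of 550 were called higher and 17.3% lower, with a median of -0.36. On the other 18 chromosomes the medians ran from -0.16 to 0.13, the share called higher from 6.22% to 16.2% and the share called lower from 5.96% to 11.5%. The C40 libraries were alike in this: relative to the PBS mean, the median was 0.35 and 0.33 on chromosome 19 and -0.34 and -0.33 on chromosome 3. The PBS libraries differed from each other by a median of 0.01 and -0.09 there. I60 minus C40 had a median of -0.06 on chromosome 19 and 0.08 on chromosome 3. DNA copy number was not analysed here.

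**Figure D5:**
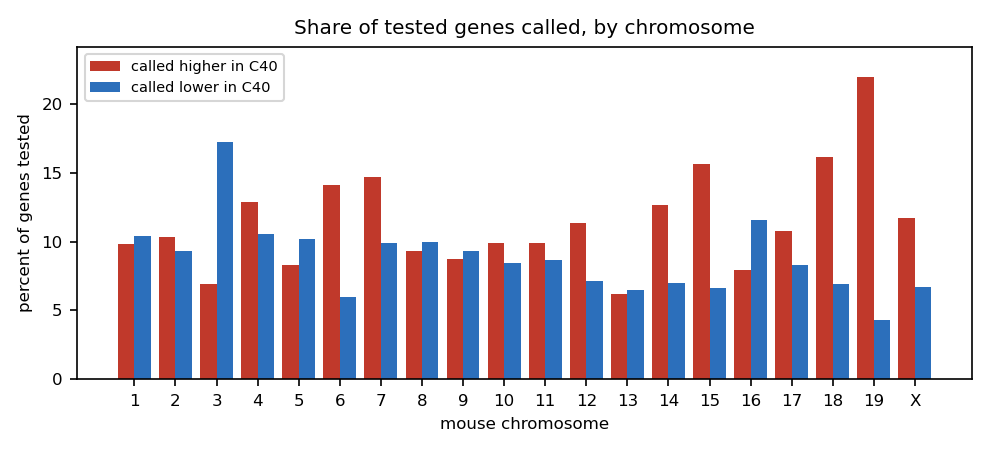
Percent of tested genes called higher (red bars) and lower (blue bars) in C40 than in PBS, for each mouse chromosome. Chromosome 19 has the tallest red bar (21.96%) and chromosome 3 the tallest blue bar (17.3%).

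On chromosome 10 the falls of Cpm and Mdm2 belonged to a run of neighbours, also chosen after the values were seen. All 8 tested genes from Cpm to Dyrk2 (mm10 chr10:117629500-118889245) fell, by 8.30-fold to 33.4-fold. The nucleoporin gene Nup107 went from 3553 and 3404 to 311 and 259 CPM and the small GTPase gene Rap1b from 2669.9 and 2363 to 247 and 319 CPM. Both were abundant in PBS and several-fold lower in both C40 libraries without overlap. The run was low in the I60 libraries as well, so it was not particular to C40. There Mdm2 stood at 242 and 259 CPM, Nup107 at 194 and 169 CPM and Rap1b at 106 and 100 CPM. Of the 3 tested genes on either side, 6 in all, 1 was called, Frs2, at a log2 fold change of -0.70. That call held when C40 replicate 1 was left out but was lost without any other single library. All 6 lay below both PBS libraries in both C40 libraries, as did 31.8% of all genes tested. Their log2 fold changes ran from -1.01 (Helb) to -0.39.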

How the data were processed

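Per the submitters' processing notes, STAR and mm10 were used. The sources used here give no counting program, annotation or strand setting, so reads of antisense or near-identical genes cannot be told apart. The deposited table holds CPM as the authors computed them, for 24454 Entrez genes. Division by the step of 1 read (0.0166 to 0.0208 CPM) gave whole reads for 100% of values within 0.01. Names and positions came from RefSeq (24374 IDs) and GENCODE (7), and 73 IDs had none.

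On log2(CPM + 0.5), limma 3.58.1 (R 4.3.3) was fitted with a trend of the variance, two-sided, over all 6 libraries in 3 groups, which left 3 residual degrees of freedom. Benjamini-Hochberg adjustment ran over 11524 genes. Fold changes are on that scale and understate the change of low genes. Where a group had 0 reads of a gene, the fold is a bound from a floor of 3 pooled reads. Where it had 1 to 3, the pooled ratio has an exact 95% interval. These cover counting error only. Alternatives were pseudocounts of 0.1 and 1, no filter, a filter of 5 CPM, C40 and PBS libraries only, TMM scaling, edgeR 4.0.16 and DESeq2 1.42.0 on the recovered reads, the replicate number as a block, and each library left out. The test was tried on simulated data. The labels tie same-numbered libraries to no shared batch, but their deviations from the group means correlated in each pair of groups, at 0.15 (PBS and C40), 0.11 (PBS and I60) and 0.44 (C40 and I60), so the blocked value is given where it changed a call or moved a count by over 1.5 times.

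The comparison, the 44 gene lists and the rules were chosen with earlier results of these data known. Named genes were the 12 largest rises and 12 largest falls of 5 CPM or more in the higher group without overlap (outside the epithelial and mesenchymal lists, collagens and predicted genes), Cdh1 and Vim as checks, the 10 largest differences between the C40 libraries, up to 4 called members per list, and further members where a list is described. Some members are not reported here.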

Additional observations from a re-analysis of the deposited data

Results flagged for a closer look

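For 10 of the 24 largest changes the effect against PBS differed between the 2 H2O2 lines, by limma's direct contrast of I60 minus C40 in the model of all 6 libraries, which called 9.23% of the 11524 genes tested. The 24 were chosen for their extreme values in C40 against PBS. Among the rises, 5 were smaller in I60. Dpysl3 stood at 6.14 and 8.99 CPM in the I60 libraries, with a log2 difference of -4.50 (limma adjusted p = 0.000281). Adgra2 stood at 12.6 and 23.8 CPM there, with a difference of -4.67 (limma adjusted p = 0.000422). The differences were -1.40 for Cd34, -1.59 for Tmem176b and -1.50 for Plxna4. Ptprn was higher in I60, at 136 and 169 CPM, with a difference of 1.55 (limma adjusted p = 0.0125).

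Among the falls, 3 went further in I60. Klk6 stood at 0.899 and 0.884 CPM in I60, a log2 difference of -4.04 (limma adjusted p = 0.000239), and Cpm at 0.112 and 0.147 CPM, a difference of -3.74. Cwh43 had 0 reads in both I60 libraries, and its fitted difference of -1.80 depends on the pseudocount. Cd24a was less reduced in I60, at 28.3 and 23.1 CPM, with a difference of 3.84 (limma adjusted p = 0.00238).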

How the results depend on the processing

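No called gene changed direction under any alternative tried. The counts of genes called in C40 against PBS, 1293 higher and 1040 lower, ran from 549 to 1717 and from 425 to 1750 with each library left out in turn. Both lowest counts came without PBS replicate 1 and both highest without C40 replicate 1, and without PBS replicate 2 they were 607 and 545. Under the other settings the counts stayed within 1.5 times: DESeq2 gave 1815 and 1507, edgeR 1351 and 1016, TMM scaling 1328 and 1072, a filter of 5 CPM 1039 and 817, and C40 and PBS libraries alone 961 and 715. Of the calls, 487 rises and 382 falls held in every alternative. With the replicate number as a block there were 1552 and 1301 calls, and beside the values printed with the results the block changed no other call of a named gene. Genes over 2-fold apart between the C40 libraries, 1022, numbered 1237 and 896 with pseudocounts of 0.1 and 1. Where the counts moved, the cause was not tested, beyond the fewer samples. The 2 libraries a group limit the precision, and where a group held 3 reads or fewer the fold is a bound or a ratio with its counting interval.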
